A study of Mus musculus with 4 samples.

Results

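The cadherin, catenin and Wnt core genes examined here are 10 genes looked up by name among the 30049 gene rows of the TPM table: Cdh1, Ctnna1, Ctnnb1, Ctnnd1, Gsk3a, Gsk3b, Axin1, Apc, Csnk1a1 and Tcf7l1. They were compared between 2 libraries of control embryos and 2 libraries of DMSO-treated embryos. All embryos were wild type, of BDF1 parents (C57BL/6 × DBA/2, 8 to 12 weeks old), recovered as zygotes at 18 h after hCG injection and cultured for 24 h in KSOM to the 2-cell stage. The DMSO group had 2% DMSO in the medium and the control group had none. The collection was of 50 embryos for each group, and whether a library held all 50 is not stated. TPM, the unit of the table, is scaled by transcript length and library total, so levels of different genes can be set side by side, but it keeps no depth, and no counting error could be given. Added over all genes, TPM came to 768174 and 780527 for the control replicates, and to 772487 and 799166 for the DMSO replicates, which is 76.8% to 79.9% of the total that defines the unit. What makes up the rest was not analysed here, so levels, their order and shares within gene families describe these rows only, and a gene's level may lack some of its transcripts.

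E-cadherin (Cdh1) joins neighbouring cells, and beta-catenin (Ctnnb1) binds its tail and carries alpha-catenin (Ctnna1), which reaches the actin cytoskeleton, while p120 catenin (Ctnnd1) keeps the cadherin at the membrane. The same beta-catenin is the messenger of the canonical Wnt pathway. Without a Wnt signal the scaffolds Axin1 and Apc hold it for casein kinase 1 alpha (Csnk1a1) and the GSK3 kinases (Gsk3a, Gsk3b), whose phosphorylation marks it for degradation. With a signal it enters the nucleus and acts with TCF/LEF factors, of which Tcf7l1 is mostly a repressor. In mouse preimplantation embryos E-cadherin and its catenins are known for compaction, which comes after the 2-cell stage.

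Of the 10 genes 7 averaged 1 TPM or more across the libraries, the filter used here, and were tested. The other 3, Cdh1, Gsk3a and Tcf7l1, were at or near 0. Among the 7, Gsk3b fell in DMSO-treated embryos, and the other 6 did not pass the test. The test was limma, a linear model of log2(TPM + 1) fitted to all 12038 genes above the filter, with Benjamini-Hochberg adjustment over all of them and a threshold of 0.05. By this test 20.5% of all genes tested were called, 14.1% lower and 6.42% higher, so that 1 of 7 members is no more than the background. With the replicate number as a block 42.6% of all genes were called (17.9% higher), and again 1 of the 7 members. The balance over all genes depended on scaling, since 31.3% of the calls were higher on the deposited values, 39.0% after median-ratio scaling and 49.0% after quantile normalization. In pooled embryos, fewer cells that carry an RNA and less of it in each cell cannot be told apart. Without control replicate 1, control replicate 2 or DMSO replicate 1, limma called 0 genes in the whole table, with 3745, 2602 and 3078 genes at an unadjusted p under 0.05, so every call named below, Gsk3b included, needed each of these 3 libraries. The calls of Gsk3b, Cdh2, Fzd7, Csnk1g1, Cdc73 and Oosp1 were also lost without DMSO replicate 2. The smallest p that exact permutation of 4 libraries can give is 0.33, and limma's p-values measure only the spread between these libraries, which may be technical.

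The members with the highest level were Csnk1a1, Gsk3b and Apc, all of the destruction complex. Csnk1a1 (chromosome 18 of GRCm38 from 61555274 to 61590061, GENCODE M21) was at 298.8 and 230.9 TPM in control replicates 1 and 2 and at 296.5 and 247.1 TPM in DMSO replicates 1 and 2. Replicate 1 was the higher library in both groups, and the groups overlapped. Its log2 fold change, DMSO over control, was 0.04 (95% interval from -0.59 to 0.68, limma adjusted p = 0.912). Gsk3b (chromosome 16 from 38089001 to 38246084) was at 93.9 and 90.6 TPM in control embryos, against 42.0 and 50.5 TPM in DMSO-treated embryos. Both DMSO libraries lay below both control libraries. Its mean fell from 92.2 ± 2.30 to 46.2 ± 6.01 TPM (SD, n = 2), which is 1.99-fold lower. The log2 fold change was -0.99 (standard error, SE, 0.26, 95% interval from -1.60 to -0.37, limma adjusted p = 0.0421). The call lay close to the threshold, held under 3 of 11 alternatives and was lost without any one of the 4 libraries. Without a filter, and without control replicate 1, control replicate 2 or DMSO replicate 1, limma called 0 genes in the whole table. No gene's call could hold under those alternatives, so its loss there is not particular to Gsk3b. The call of Gsk3b was also lost under both other scalings, while its log2 fold change stayed between -1.12 and -0.71 under every alternative run.

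**Figure D1:**
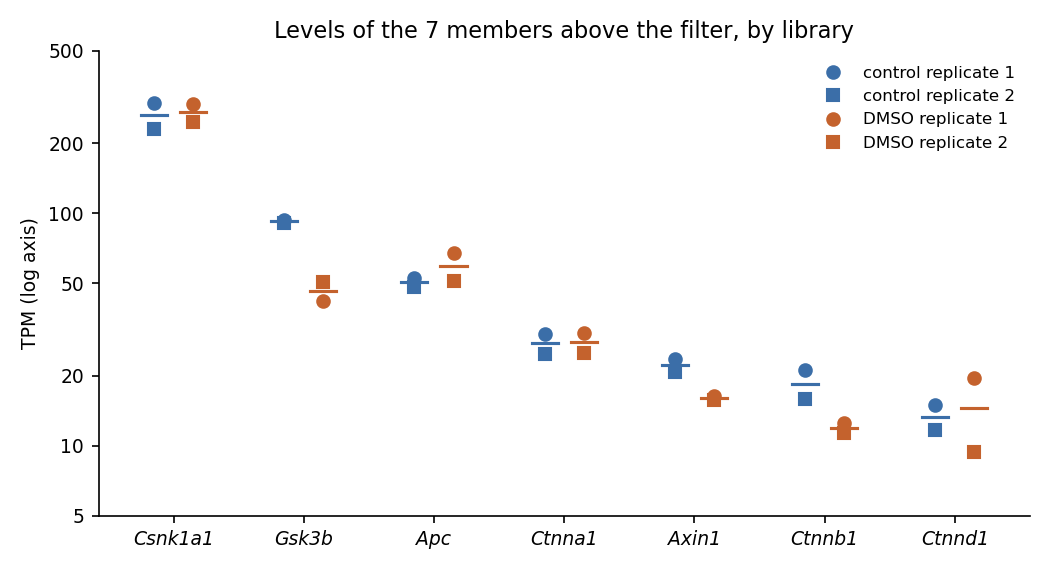
TPM on a log axis for the 7 members above the filter, ordered by mean level. Circles are replicate 1, squares replicate 2, and short lines the mean of the 2 libraries of a group. Csnk1a1 lies above 200 TPM in all libraries, and Gsk3b is near 92 TPM in control and near 46 TPM in DMSO-treated embryos. Cdh1, Gsk3a and Tcf7l1 are not drawn because they were at or near 0.

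**Figure D2:**
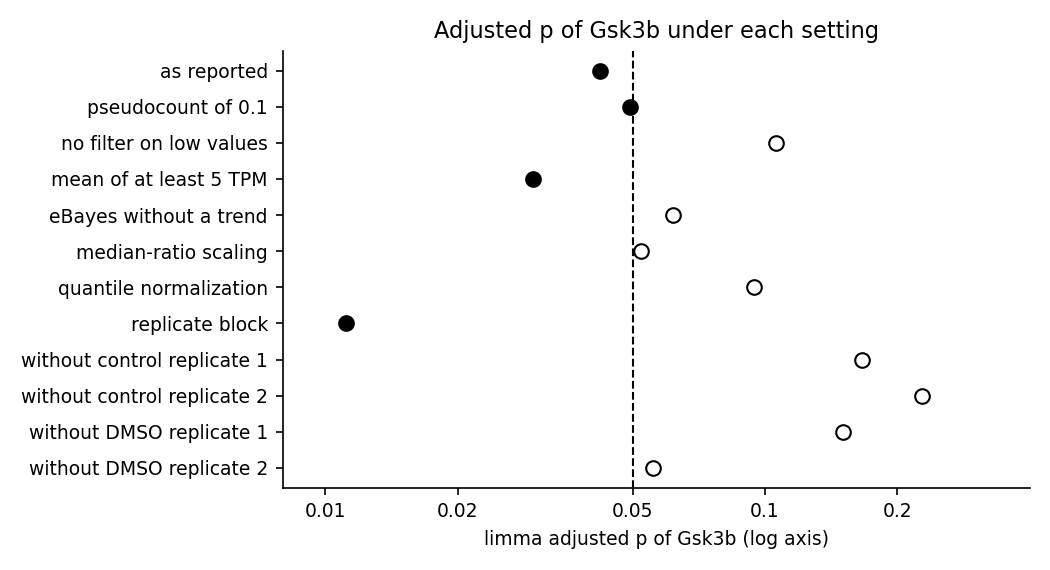
Limma adjusted p of Gsk3b on a log axis under the setting reported and the 11 alternatives. Filled points are under the threshold of 0.05, marked by the dashed line. The values run from 0.0111 to 0.227, and the highest is that without control replicate 2.

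The scaffolds of the complex did not pass the test. Apc (chromosome 18 from 34220924 to 34322552), the tumour suppressor that binds beta-catenin, was at 52.7 and 48.4 TPM in control embryos, against 67.3 and 51.1 TPM in DMSO-treated embryos. The groups overlapped, with DMSO replicate 1 above the others, and the log2 fold change was 0.21 (95% interval from -0.44 to 0.87, limma adjusted p = 0.58). Axin1 (chromosome 17 from 26138688 to 26195811), on which the complex assembles, was at 23.5 and 20.8 TPM in control embryos, against 16.3 and 15.7 TPM in DMSO-treated embryos. Both DMSO libraries were the lower ones. The log2 fold change was -0.44 (95% interval from -1.10 to 0.22, limma adjusted p = 0.261), and it lay between -0.53 and -0.28 under the alternatives.

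Of the catenins, beta-catenin had the lower values in DMSO-treated embryos, and alpha-catenin and p120 catenin overlapped between groups. Ctnnb1 (chromosome 9 from 120929216 to 120960507) was at 21.1 and 15.9 TPM in control embryos, against 12.5 and 11.3 TPM in DMSO-treated embryos. No DMSO library reached the lower control library. The log2 fold change was -0.58 (95% interval from -1.30 to 0.13), and the test was not passed (limma adjusted p = 0.19, between 0.0859 and 0.562 under the alternatives). Ctnna1 (chromosome 18 from 35118859 to 35254779) was at 30.4 and 24.8 TPM in control embryos, against 30.5 and 25.2 TPM in DMSO-treated embryos. Its values in the groups were close, with a log2 fold change of 0.01 (95% interval from -0.66 to 0.69, limma adjusted p = 0.976). Ctnnd1 (chromosome 2 from 84600071 to 84650765) was at 14.9 and 11.7 TPM in control embryos, against 19.6 and 9.39 TPM in DMSO-treated embryos. The DMSO libraries were the highest and the lowest of the 4, and the log2 fold change was 0.04 (95% interval from -0.92 to 0.999, limma adjusted p = 0.946). For Ctnna1, Ctnnd1 and Csnk1a1 the sign of the log2 fold change turned when single libraries were left out. The level of Ctnna1 was 1.44 and 1.56 times that of Ctnnb1 in control embryos, against 2.43 and 2.22 times in DMSO-treated embryos, as ratios of TPM with no test.

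**Figure D3:**
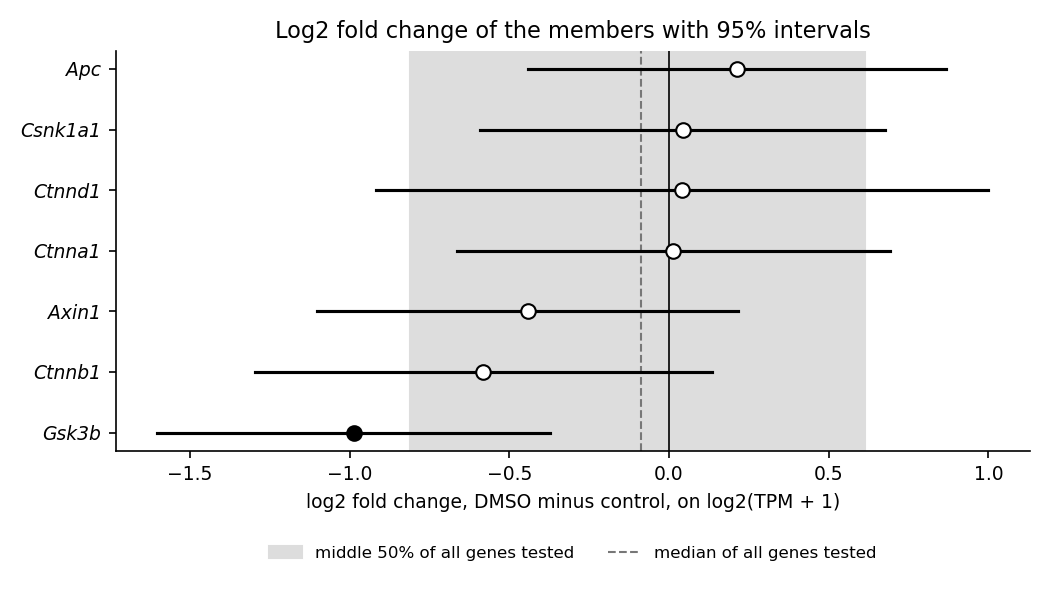
Log2 fold change (DMSO minus control, on log2(TPM + 1)) of the 7 members tested, with 95% intervals from limma. The filled point is Gsk3b, the member with an adjusted p under 0.05. The grey band holds the middle 50% of all 12038 genes tested and the dashed line is their median, -0.09. The intervals of 6 members include 0.

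In both groups Csnk1a1 was the most abundant member. In control embryos Gsk3b followed, then Apc, Ctnna1, Axin1, Ctnnb1 and Ctnnd1. Of these neighbours in the control order Axin1 and Ctnnb1 overlapped in their libraries, and no other pair did. In DMSO-treated embryos Apc, at a mean of 59.2 TPM, stood above Gsk3b, at 46.2 TPM, with their libraries barely apart (51.1 against 50.5 TPM). Axin1, Ctnnd1 and Ctnnb1 came last there, and Ctnnd1 overlapped with both of the others. Over the 7 members 4 log2 fold changes were above 0 and 3 below, with a median of 0.01, against -0.09 over all genes tested. This balance rested on single libraries. Without control replicate 2 or without DMSO replicate 1, Apc alone stayed above 0 (0.15 and 0.02). The middle value was then -0.14 (Csnk1a1) and -0.45 (Ctnnd1), against medians of -0.15 and -0.11 over all genes tested. The libraries of the groups did not overlap for 3 of the 7, Gsk3b, Ctnnb1 and Axin1, all of them lower with DMSO. Among all genes tested the groups did not overlap for 69.8%, and 38.7% were lower without overlap. For Ctnna1, Ctnnd1, Apc and Csnk1a1 the 95% interval stayed within 1 of 0 on the log2(TPM + 1) scale, which bounds the difference on that scale and does not show that the levels were equal.

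Cdh1 (chromosome 8 from 106603351 to 106670246) was listed at 0 in all 4 libraries. Gsk3a (chromosome 7 from 25228258 to 25237851) was listed at 0 in 3 libraries and at 2.41e-09 TPM in control replicate 1. Tcf7l1 (chromosome 6 from 72626378 to 72789254) was listed at 0 in 3 libraries and at 0.281 TPM in DMSO replicate 2. No fold change can be given for these 3. A value of 0 in this table does not show that the RNA was absent, because genes that nearly every cell uses are also at or near 0 in it. Ppp2r1a, the scaffold subunit of the phosphatase PP2A, was at 0 in 3 libraries and at 0.499 TPM in control replicate 2. Of 10 such genes looked up after the values had been seen, Actg1, Pgk1 and Polr2a had means under 1 TPM, and beta-actin (Actb) lay between 0 and 8.58 TPM. Others of these 10 were abundant, such as Ubb, at 2450 and 1686 TPM in control embryos, against 3890 and 2394 TPM in DMSO-treated embryos. Hprt, a purine salvage enzyme, was at 784 and 1114 TPM in control embryos, against 316 and 428 TPM in DMSO-treated embryos, and was called lower (log2 fold change -1.34, limma adjusted p = 0.0309, between 0.0027 and 0.214 under the alternatives), a call lost after quantile normalization. Tbp and Ppia were also lower without overlap, at log2 fold changes of -1.01 and -0.90, and did not pass the test (limma adjusted p = 0.0582 and 0.0927). Under the alternatives the adjusted p of Tbp lay between 0.0138 and 0.257 and passed in 2 of 11, and that of Ppia lay between 0.0096 and 0.438 and passed in 1 of 11.

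Some members share sequence with other genes, which can bear on how kallisto divides reads. The shares were counted on GENCODE M21 transcripts. The authors' kallisto run used Ensembl transcripts, and that set may differ, so the shares may not be those of the run. Of the 31-base words in the transcripts of Ctnnd1, 58.6% also occur in other genes, counted on either strand. For the gene sharing the most, shared words were added up over all transcripts of a gene, which favours genes with many transcripts. By this count it was Gm28635, which was listed at 0 in all 4 libraries. The share was 30.3% for Gsk3a, and the gene sharing the most by this count was 9130221H12Rik. No row of the TPM table carried that name, so its level could not be given. For Ctnnb1 the share was 13.2%, and the gene sharing the most by this count was the kinase gene Ulk4. Ulk4 was at 9.57 and 13.04 TPM in control embryos, against 13.9 and 16.8 TPM in DMSO-treated embryos. For the other 7 members the share was at most 2.44%, and for Gsk3b 0.741%.

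The sequences before the start sites of the GSK3 pair, of Ctnnb1 and of Lef1, the TCF/LEF factor called below, show what these promoters hold. The RefSeq promoter table (GRCm38.p6) has windows for Ctnnb1, Ctnnd1, Gsk3a, Gsk3b and Tcf7l1. Each line gives the 250 bases before a start, 5′ to 3′ on the gene's strand, with the TCF/LEF core CTTTG, or CAAAG where it lies on the other strand, in capitals. The windows are chr16:38088751-38089000 (plus strand) for Gsk3b, chr7:25237852-25238101 (minus strand) for Gsk3a, chr9:120933150-120933399 (plus strand) for the first of the Ctnnb1 starts and chr3:131110047-131110296 (plus strand) for the first of the Lef1 starts.
Gsk3b: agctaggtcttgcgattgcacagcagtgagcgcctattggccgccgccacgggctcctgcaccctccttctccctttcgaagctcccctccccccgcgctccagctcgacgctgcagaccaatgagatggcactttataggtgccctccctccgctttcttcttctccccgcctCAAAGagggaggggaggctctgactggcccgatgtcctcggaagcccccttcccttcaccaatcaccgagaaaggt
Gsk3a: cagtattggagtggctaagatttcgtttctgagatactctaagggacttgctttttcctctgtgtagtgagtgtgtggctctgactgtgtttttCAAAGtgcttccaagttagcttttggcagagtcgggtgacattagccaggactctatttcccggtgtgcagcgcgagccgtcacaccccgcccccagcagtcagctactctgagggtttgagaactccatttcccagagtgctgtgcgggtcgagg
Ctnnb1: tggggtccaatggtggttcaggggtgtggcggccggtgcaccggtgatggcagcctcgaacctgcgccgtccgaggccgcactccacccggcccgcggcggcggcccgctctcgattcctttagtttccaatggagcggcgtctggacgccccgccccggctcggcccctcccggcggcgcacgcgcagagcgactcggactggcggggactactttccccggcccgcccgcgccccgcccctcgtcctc
Lef1: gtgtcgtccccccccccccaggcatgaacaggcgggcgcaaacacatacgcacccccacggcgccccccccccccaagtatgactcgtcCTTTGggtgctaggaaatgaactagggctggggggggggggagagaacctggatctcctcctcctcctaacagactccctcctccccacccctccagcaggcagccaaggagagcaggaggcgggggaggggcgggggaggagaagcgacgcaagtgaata

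The core occurs 1 time in the Gsk3b window, beginning 76 bases before the start, 1 time in the Gsk3a window, at 156 bases, and 1 time in the printed Lef1 window, at 161 bases. Lef1 has 4 windows in the table, with 1, 2, 1 and 3 cores. The printed Ctnnb1 window holds none, and neither does the other one of Ctnnb1. Of all 32851 promoter windows of this length 48.6% hold the core on either strand, so a match of these 5 letters is common. Of the 121 windows of the pathway genes 47 hold it, or 38.8%. The longer form CTTTGAA, which contains the core, is in 4.46% of all windows and was found in that of Gsk3a, and the form CTTTGAT is in 3.21% and was found in none of the 4. The Ctnnb1 window has 35 CG dinucleotides, that of Gsk3b 15, that of Lef1 11 and that of Gsk3a 9, against a median of 6 over all windows. These are matches of letters and say nothing of binding.

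Set beside their paralogues, the members at or near 0 had relatives that were well above it. Among the classical cadherins N-cadherin (Cdh2) was the highest, at 11.3 and 8.99 TPM in control embryos, against 28.6 and 23.9 TPM in DMSO-treated embryos. Both DMSO libraries lay above both control libraries, and Cdh2 rose 2.59-fold between the means (log2 fold change 1.29, SE 0.30, limma adjusted p = 0.0325, between 0.00707 and 0.217 under the alternatives). P-cadherin (Cdh3) was between 1.25 and 2.62 TPM and R-cadherin (Cdh4) between 1.02 and 3.89 TPM. Of the TCF/LEF factors Lef1, which can activate Wnt targets with beta-catenin, was at 18.1 and 7.21 TPM in control embryos, against 99.2 and 45.6 TPM in DMSO-treated embryos. Replicate 1 was the higher library in each group, and the groups did not overlap. Lef1 rose 5.72-fold between the means (log2 fold change 2.45, SE 0.52, limma adjusted p = 0.0291, between 0.0024 and 0.177 under the alternatives). The size rested on single libraries, since the log2 fold change of Lef1 was 1.84 without control replicate 2, 1.89 without DMSO replicate 1, 2.9998 without DMSO replicate 2 and 3.06 without control replicate 1. Tcf7 was at 10.1 and 7.15 TPM in control embryos, against 19.2 and 14.3 TPM in DMSO-treated embryos and did not pass the test (log2 fold change 0.89, limma adjusted p = 0.0932, between 0.0245 and 0.42 under the alternatives). Tcf7l2 overlapped between the groups, at 5.96 and 12.8 TPM against 8.07 and 14.6 TPM. The TPM of the 4 TCF/LEF genes summed to 34.1 and 27.1 in control embryos, against 126.5 and 74.7 in DMSO-treated embryos. Lef1 made up 78.4% and 61.0% of the sum in DMSO replicates 1 and 2, against 53.1% in control replicate 1. In control replicate 2 Tcf7l2 was the highest of the 4, at 47.1%.

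**Figure D4:**
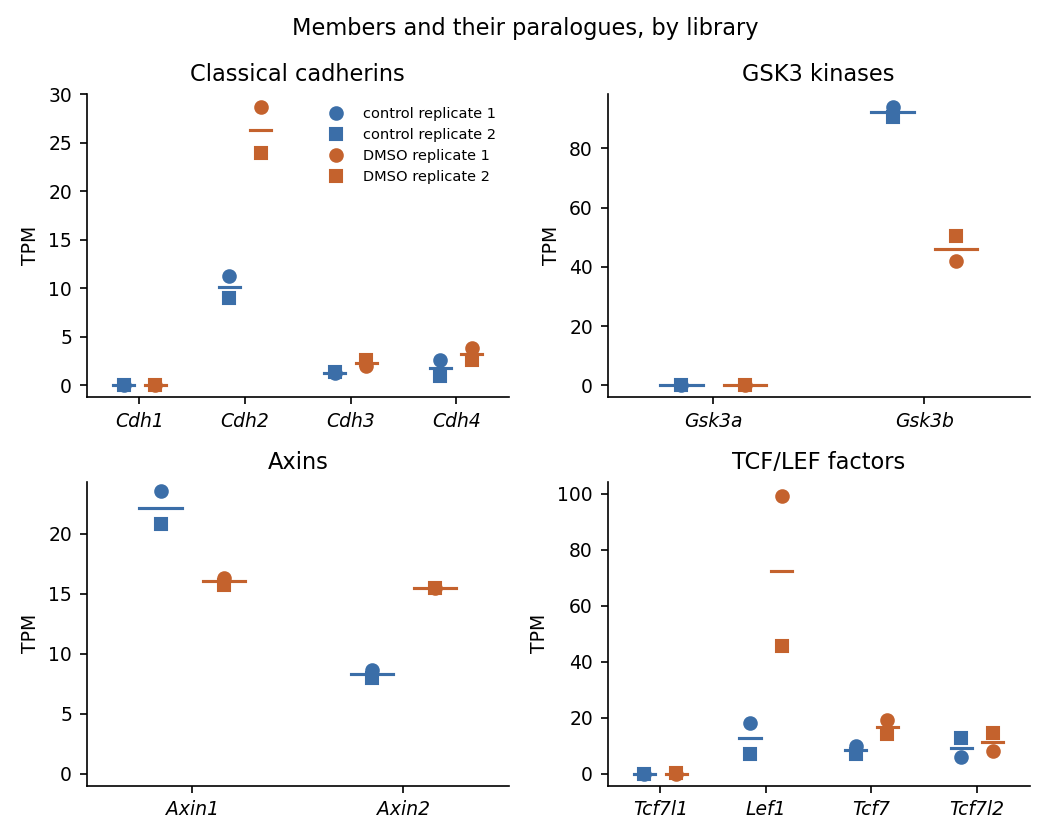
TPM of members and their paralogues in each library, with circles for replicate 1, squares for replicate 2 and short lines for the mean of a group. Cdh1, Gsk3a and Tcf7l1 sit at or near 0, while Cdh2 and Lef1 were higher and Gsk3b was lower in the DMSO libraries. Axin1 and Axin2 lie close together in DMSO-treated embryos and apart in control embryos.

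The Axin pair showed opposite signs, neither passing the test. Axin2, a scaffold like Axin1 and itself a textbook Wnt target, was at 8.67 and 7.96 TPM in control embryos and at 15.5 TPM in both DMSO libraries (log2 fold change 0.83, SE 0.29, limma adjusted p = 0.0819, between 0.0319 and 0.344 under the alternatives). The ratio of Axin2 to Axin1 in TPM was 0.369 and 0.382 in control embryos, against 0.951 and 0.984 in DMSO-treated embryos, and this ratio was not tested. The sum of both was 32.2 and 28.8 TPM in control embryos, against 31.8 and 31.2 TPM in DMSO-treated embryos. Apc held 94.5% and 95.6% of the summed TPM of Apc and Apc2 in control embryos, against 98.1% and 96.2% in DMSO-treated embryos. Csnk1a1 was the highest of 6 casein kinase 1 genes in every library, with 51.3% to 58.7% of their summed TPM. Plakoglobin (Jup), the nearest relative of beta-catenin, was at 1.44 and 1.15 TPM in control embryos, against 4.03 and 2.65 TPM in DMSO-treated embryos (log2 fold change 0.90, limma adjusted p = 0.107). Ctnnb1 made up 93.6% and 93.3% of the TPM of this pair in control embryos and 75.7% and 81.0% in DMSO-treated embryos. Ctnna1 made up 93.3% and 95.6% of the summed TPM of the 3 alpha-catenin genes in control embryos, against 74.0% and 86.5% in DMSO-treated embryos. The rest was mostly Ctnna3 in the DMSO libraries, at 10.5 and 3.87 TPM, against 1.66 and 1.10 TPM in control embryos, without overlap. Ctnna3 did not pass the test (log2 fold change 1.66, limma adjusted p = 0.0525, between 0.0107 and 0.25 under the alternatives), and its log2 fold change ran from 1.04 to 2.29 under the alternatives. The alpha-catenin-like gene Ctnnal1 was at 29.3 and 12.8 TPM in control embryos, against 84.5 and 35.5 TPM in DMSO-treated embryos. Replicate 1 was the higher library of Ctnnal1 in each group, and it did not pass the test (log2 fold change 1.45, from 0.84 to 2.06 under the alternatives, limma adjusted p = 0.0914, between 0.0044 and 0.415). Of the 4 genes of the p120 family Ctnnd1 made up 16.7% and 19.2% of the summed TPM in control embryos, against 15.9% and 10.8% in DMSO-treated embryos, and Pkp4 was the highest in every library.

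The rest of the pathway was described by lists of genes grouped by role. Over all of these lists, each gene counted one time, 123 genes had a row and 67 were tested. Of the 67, 3 were called higher and 4 lower, or 10.4%, against 20.5% of all genes tested. Their median log2 fold change was 0.16, and 40 were above 0 and 27 below. The Wnt ligands had low values: none of the 19 reached a mean of 1 TPM, 3 (Wnt3a, Wnt6 and Wnt10a) were listed at 0 in all libraries, Wnt7b was at most at 2.06e-08 TPM, and the highest, Wnt4, had a mean of 0.477 TPM, followed by Wnt7a at 0.364 TPM. Of 15 secreted and membrane inhibitors 2 were tested, Znrf3 (a ubiquitin ligase that removes Wnt receptors, mean 3.44 TPM) and Kremen2 (mean 1.37 TPM), and neither passed the test.

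Of 15 Wnt receptors and co-receptors 8 were tested and 1 was called. The Frizzled receptor gene Fzd7 was at 4.99 and 3.37 TPM in control embryos, against 11.6 and 15.7 TPM in DMSO-treated embryos. It rose 3.27-fold between the means (log2 fold change 1.50, SE 0.34, limma adjusted p = 0.032, between 0.0107 and 0.214 under the alternatives). Fzd5 pointed the same way as Fzd7, at 2.38 and 1.30 TPM in control embryos, against 3.86 and 5.89 TPM in DMSO-treated embryos, without overlap. Fzd5 did not pass the test (log2 fold change 1.05, limma adjusted p = 0.0891). Another Frizzled gene, Fzd9, pointed the other way, at 7.30 and 9.36 TPM in control embryos, against 2.36 and 3.88 TPM in DMSO-treated embryos. The groups did not overlap for Fzd9, and it did not pass the test (log2 fold change -1.20, limma adjusted p = 0.0559, between 0.0144 and 0.285 under the alternatives). Ryk, a receptor tyrosine kinase-like Wnt receptor and the most abundant of the list, was at 45.3 ± 1.02 TPM in control and 58.0 ± 5.38 TPM in DMSO-treated embryos (SD, n = 2) and did not pass the test (limma adjusted p = 0.335). Of the 8 receptors tested 5 were above 0 and 3 below, with a median of 0.25. Of the 5 genes for Wnt secretion and Dishevelled, the relay between receptor and destruction complex, 4 were tested and 0 were called by limma, although Dvl1 and Dvl3 had an unadjusted p of 0.0214 and 0.028. Their values pointed opposite ways, with log2 fold changes of -1.28 for Dvl1 (-0.77 without DMSO replicate 1) and 1.10 for Dvl3 (0.71 without control replicate 2). Their limma adjusted p was 0.0751 for Dvl1 (between 0.0297 and 0.31 under the alternatives) and 0.0865 for Dvl3 (between 0.0329 and 0.395).

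Of 20 other genes of the destruction complex and of beta-catenin ubiquitination that were tested, 1 was called. The casein kinase gene Csnk1g1 was at 19.4 and 21.5 TPM in control embryos, against 8.42 and 9.81 TPM in DMSO-treated embryos, and fell 2.24-fold between the means (log2 fold change -1.09, SE 0.29, limma adjusted p = 0.0436, between 0.0127 and 0.258 under the alternatives). The call of Csnk1g1 was lost after median-ratio scaling (0.0533) and quantile normalization (0.0611). The most abundant genes of this list were the ubiquitin ligase subunits Cul1 and Rbx1, with means of 740.1 and 260.0 TPM. Cul1 was at 568 and 448 TPM in control embryos, against 1121 and 823 TPM in DMSO-treated embryos, without overlap, and did not pass the test (log2 fold change 0.93, limma adjusted p = 0.0581), although it passed under 4 of 11 alternatives, with values between 0.0048 and 0.323. The log2 fold change of Rbx1 was 0.18 (limma adjusted p = 0.6), and it was 0.045 without DMSO replicate 1, 0.32 without DMSO replicate 2 and 0.41 after quantile normalization. The median over the 20 was 0.18, and it was 0.01 without DMSO replicate 1, 0.11 without control replicate 2 and 0.36 after quantile normalization.

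Of 16 other TCF/LEF factors and beta-catenin cofactors tested, Lef1 was called higher and Ctnnbip1 and Cdc73 lower, with a median of 0.04 over the 16, which lay between -0.14 and -0.07 when single libraries were left out. Ctnnbip1 (also named ICAT), which keeps beta-catenin from binding TCF factors, was at 16.9 and 35.7 TPM in control embryos, against 2.03 and 6.65 TPM in DMSO-treated embryos. The groups did not overlap, and replicate 2 was the higher library in each. It fell 6.07-fold between the means (log2 fold change -2.41, SE 0.55, limma adjusted p = 0.0321, between 0.0026 and 0.203 under the alternatives). Its log2 fold change was -1.75 without DMSO replicate 1, -1.90 without control replicate 2, -2.93 without control replicate 1 and -3.08 without DMSO replicate 2. Cdc73, a subunit of the PAF1 complex, fell from 16.5 and 18.4 TPM to 7.69 and 5.84 TPM (log2 fold change -1.26, SE 0.30, limma adjusted p = 0.0366, between 0.0112 and 0.227 under the alternatives). The coactivator Crebbp, the most abundant of the list after Lef1, overlapped between groups (log2 fold change 0.36, limma adjusted p = 0.543). Of 16 textbook Wnt targets 7 were tested and Lef1, which is also counted above, was the 1 called, with 5 of the 7 above 0 and a median of 0.69. Of the 2 below 0, the transcription factor gene Myc was at 11.8 and 7.66 TPM in control embryos, against 3.77 and 4.27 TPM in DMSO-treated embryos. The groups did not overlap for Myc, and it did not pass the test (log2 fold change -1.07, limma adjusted p = 0.0681, between 0.0276 and 0.289 under the alternatives). The other was Znrf3, at -0.23.

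**Figure D5:**
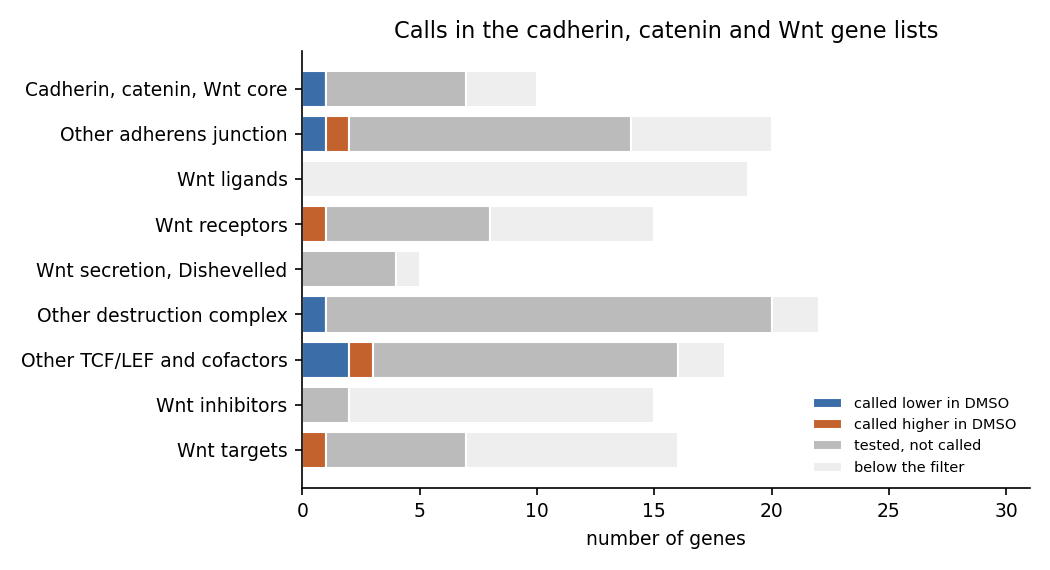
Number of genes in each list that limma called lower or higher in DMSO-treated embryos, that were tested and not called, or that lay below the filter of a mean of 1 TPM. Lists can share genes, and Lef1 is the call in the Wnt targets and the higher call among the TCF/LEF factors. All 19 Wnt ligands lie below the filter.

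Of 14 other adherens junction genes tested, Cdh2 was called higher and Epcam lower, with 9 above 0 and a median of 0.63, which was 0.41 without control replicate 2. Epcam, an epithelial adhesion molecule, was at 103.6 and 92.6 TPM in control embryos, against 36.1 and 55.9 TPM in DMSO-treated embryos. Both DMSO libraries were below both control libraries, and Epcam fell 2.13-fold between the means (log2 fold change -1.11, SE 0.30, limma adjusted p = 0.0466, between 0.015 and 0.217 under the alternatives). The call of Epcam was lost after median-ratio scaling (0.059) and quantile normalization (0.103). Afadin (Afdn), which links nectins to actin and was the most abundant of the list, was at 82.0 and 68.8 TPM in control embryos, against 164.7 and 108.8 TPM in DMSO-treated embryos, without overlap (log2 fold change 0.83, limma adjusted p = 0.0903, between 0.0173 and 0.38 under the alternatives). The p120 relative Pkp4 was at 72.3 and 44.8 TPM in control embryos and at 101.9 and 74.995 TPM with DMSO (log2 fold change 0.61, limma adjusted p = 0.208, between 0.0452 and 0.706 under the alternatives), and its log2 fold change was 0.27 without control replicate 2 and 0.95 without control replicate 1. Of the 73 other tested genes of these lists, members included, the one whose pattern over the 4 libraries lay nearest to that of Ctnnb1 was Axin1, at a Euclidean distance of 0.213 on the centred log2(TPM + 1) scale, followed by Ppp2ca at 0.368 and Apc2 at 0.39.

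The tissue label was checked on markers. Dppa3, an oocyte and early embryo gene, was at 11639 and 15346 TPM in control embryos, against 10828 and 15216 TPM in DMSO-treated embryos. Of 11 oocyte and 2-cell embryo markers tested, 3, Bmp15, Oosp1 and Zfp352, were called higher in DMSO-treated embryos, against 6.42% of all genes tested. Of the 11, 7 were above 0 and 4 below, the latter being Dppa3 (-0.06, and -0.70 after quantile normalization), Zscan4d (-0.05), Zp3 (-0.42) and Padi6 (-0.80), none of which passed the test. Nlrp5, which oocytes are known to express, was at most at 0.142 TPM. The 12 cumulus and granulosa cell markers summed to 39.6 and 31.5 TPM in control embryos, against 12.9 and 19.7 TPM in DMSO-treated embryos. Of this Amhr2 made up 36.8 and 29.6 TPM and 8.29 and 16.5 TPM, and it was called lower (log2 fold change -1.42, limma adjusted p = 0.0442, between 0.0173 and 0.198 under the alternatives). The call of Amhr2 held under 3 of 11 alternatives and was lost after median-ratio scaling (0.0545) and quantile normalization (0.0666). Other markers of this list had higher values with DMSO. Cyp11a1, the other one tested, was at 0.781 and 0.802 TPM in control embryos, against 2.10 and 0.958 TPM in DMSO-treated embryos (log2 fold change 0.46, limma adjusted p = 0.39, with 0.13 without DMSO replicate 1 and 0.79 without DMSO replicate 2 as log2 fold changes). Cyp19a1, below the filter, was at 0.422 and 0.494 TPM against 1.25 and 1.08 TPM. Tnfaip6 lay between 0.225 and 1.52 TPM, Amh was listed at 0 in all libraries, and Fshr, Inha, Foxl2, Has2, Ptx3, Fst and Hsd17b1 were at most at 0.165 TPM. The 8 oviduct and blood markers summed to 30.0 and 28.4 TPM in control embryos, against 35.0 and 45.1 TPM in DMSO-treated embryos. Most of it was Ovgp1, an oviduct glycoprotein, at 17.9 and 19.5 TPM in control embryos, against 26.2 and 33.2 TPM in DMSO-treated embryos, without overlap. Krt8, an epithelial keratin, pointed the other way, at 6.20 and 4.47 TPM in control embryos, against 2.68 and 3.53 TPM in DMSO-treated embryos (log2 fold change -0.62, limma adjusted p = 0.214). Hba-a1 lay between 1.44 and 4.32 TPM and Pax8 between 1.71 and 3.32 TPM, and the other 4, below the filter, were at most at 0.499 TPM. By limma 0 of the 4 tested were called or had an unadjusted p-value under 0.05, and the log2 fold change of Ovgp1 was 0.63 (limma adjusted p = 0.144, between 0.0589 and 0.385 under the alternatives). The part of these markers in the results above was not tested.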

How the data were processed

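RNA of 2-cell embryos was amplified with the SMARTer Ultra Low Input RNA Kit and sequenced on a HiSeq2500 with 50-base reads, described as single-end in one source and as paired-end in another. The authors ran kallisto against Ensembl transcripts of GRCm38 (mm10) and deposited TPM values summed per gene with tximport, and tool versions are not given in the sources used here. The submitters' processing notes also name STAR, SAMtools and bedtools. The authors' own test was DESeq2 on counts, which cannot be run on TPM.

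Gene names and coordinates were taken from GENCODE M21 (GRCm38). limma 3.58.1 in R 4.3.3 was fitted without a replicate block, with a mean-variance trend, a pseudocount of 1 and a filter of a mean of at least 1 TPM, on all 12038 genes. On simulated data of 12038 genes with 200 changed, it recovered 61 of 100 genes changed by 2 and 4 of 100 changed by 1 on the log2 scale, with 6 false calls. In the embryo data 2470 genes were called, and the cutoff of the Benjamini-Hochberg adjustment depends on how many genes pass. The recovered shares therefore do not give the sensitivity of the test on the embryo data. The alternatives were another pseudocount (0.1), other filters (none, or a mean of 5 TPM), no trend in eBayes, scaling by median ratios or by quantiles, a block for the replicate number, and each library left out. With a library left out, the lone library of a group was assumed to vary like the other group. Python 3.11.15, pandas 2.3.3, numpy 2.4.6 and matplotlib 3.10.9 were used otherwise.

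The members and lists were chosen with earlier results of these data known. Named were all members and, in each other list, every gene called and the 2 with the highest mean TPM. Paralogues of members, Ctnnal1, Fzd5, Fzd9, Myc, Ppp2r1a, the marker genes named and the 10 widely used genes were added after their values had been seen.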

Additional observations from a re-analysis of the deposited data

How the results depend on the processing

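Over all genes tested, 2470 were called on the values as reported, 5132 with the replicate block and 0 of 22257 without a filter on low values, where 5368 had an unadjusted p under 0.05. Without single libraries the count ran from 0 to 1883. The count of members called, 1, became 0 without a filter, without a trend in eBayes, after median-ratio scaling, after quantile normalization and without any single library (0 to 0). Gsk3b kept its direction, at -0.99 without a filter (adjusted p = 0.106) and without a trend (0.0618), -0.94 after median-ratio scaling (0.0523) and -0.71 after quantile normalization (0.0943), against 0.0111 to 0.227 over all its limma alternatives, and at -1.12 to -0.86 without single libraries. Without single libraries Ctnnb1 ran from -0.77 to -0.39, Axin1 from -0.53 to -0.36, Apc from 0.02 to 0.41, and Ctnna1 (-0.13 to 0.15), Ctnnd1 (-0.45 to 0.53) and Csnk1a1 (-0.14 to 0.23) changed sign without control replicate 2 or DMSO replicate 1. Crebbp (-0.13 to 0.84) turned to -0.13 without DMSO replicate 1, and Kremen2 (-0.31 to 0.20) turned to 0.20 without control replicate 1 and to 0.17 without DMSO replicate 1. Dppa3 (-0.30 to 0.19 without single libraries, -0.70 after quantile normalization) turned to 0.14 without control replicate 2 and to 0.19 without DMSO replicate 1, and Zscan4d (-0.22 to 0.12) to 0.12 without DMSO replicate 2 and to 0.032 after quantile normalization. Other uncalled values that moved by over 1.5 times without a single library were those of Afdn (0.53 without DMSO replicate 1), Znrf3 (-0.41 to -0.04), Zp3 (as small as -0.23 without control replicate 2) and Padi6 (-1.50 without DMSO replicate 2 to -0.10 without DMSO replicate 1), and after quantile normalization Apc stood at 0.49 and Ryk at 0.62. The causes of these changes were not tested.

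Without a filter 0 genes were called in any list. The 2 calls among junction genes became 1 with a pseudocount of 0.1, without a trend and after median-ratio scaling, where Epcam was lost, and after quantile normalization they were 2 because Afdn (0.0419) took the place of Epcam. The call among destruction complex genes became 0 without a trend and 3 at a mean of 5 TPM, where fewer genes were tested. It stayed at 1 after median-ratio scaling and quantile normalization, but with Cul1 (0.0487 and 0.0447) in place of Csnk1g1. Medians moved for the secretion and Dishevelled genes (0.58 with a pseudocount of 0.1) and the targets (0.89 with that pseudocount, 0.86 at 5 TPM). That of the receptors was 0.16 at 5 TPM and 0.39 after quantile normalization. For the nuclear factors it was -0.03 at 5 TPM and 0.08 after median-ratio scaling. At 5 TPM no secretion, Dishevelled or inhibitor gene was left. Without single libraries the calls ran from 0 to 2 for junction genes, 0 to 0 for receptors, 0 to 1 for secretion and Dishevelled genes, 0 to 0 for the destruction complex, 0 to 2 for nuclear factors, 0 to 0 for inhibitors and 0 to 1 for targets. Their medians ran from 0.41 to 0.89, 0.17 to 0.33, 0.11 to 0.45, 0.01 to 0.25, -0.14 to -0.07, -0.18 to -0.10 and 0.64 to 0.74 in the same order.

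The labels do not say what a replicate number shares, so the numbers were not taken as pairs. The correlation of deviations from the group means between libraries of 1 number was r = 0.354 across 12038 genes, which are not independent replicates. With the replicate number as a block, 42.6% of all genes tested were called. Of the pathway genes outside the members 22 of 67 were called, a smaller share than that. The calls were 6 of 14 junction genes, 2 of 8 receptors, 2 of 4 secretion and Dishevelled genes, 7 of 20 in the destruction complex, 4 of 16 nuclear factors and 4 of 7 targets, and Gsk3b was again the 1 member called. The second receptor call was Fzd9, lower with DMSO. Of the genes named as not passing, Cul1, Ppia, Tbp, Fzd9, Afdn, Tcf7, Myc, Dvl1, Axin2, Dvl3, Ctnna3, Ctnnal1 and Pkp4 passed with the block, at adjusted p-values from 0.0044 for Ctnnal1 to 0.0452 for Pkp4. Of the 11 oocyte and 2-cell embryo markers 6 were called higher with the block, against 17.9% of all genes, with Gdf9 (0.0119), Npm2 (0.0149) and Zscan4c (0.0262) beside the 3 called without it.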
